A study of Homo sapiens with 24 samples.

Results

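The 96 genes described here are the expressed ZNF genes, a set of zinc finger genes selected on their symbol and their mean level. A row of the deposited table was a member when its symbol was ZNF followed by a number and at most 1 letter and its mean over 24 libraries was at least 1 RPKM (reads per kilobase of gene span, scaled to library size). Of the 369 ZNF rows deposited, 96 met the rule (26.0%), against 6494 of all 16591 rows (39.1%). The mean level is therefore a property of the choice. The rule holds no drug comparison, but its mean includes the drug libraries. The members were also chosen with earlier results of these data known.

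The study treated 4 human cancer cell lines with EPZ015666, also called GSK3235025, which inhibits the arginine methyltransferase PRMT5. BT549 and MDAMB436 are breast cancer lines and OVCAR8 and COV362 are ovarian cancer lines. Each line received 5 µM EPZ015666 or the vehicle DMSO. BT549 and OVCAR8 were collected on day 3 and day 5, and COV362 and MDAMB436 on day 5. Each of the 12 groups has 2 libraries, lettered A and B, of stranded poly(A) RNA. Whether the A and B libraries represent independent cultures is not in the labels, and p-values measure only their spread, which may be technical.

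ZNF genes encode proteins built mostly from tandem C2H2 zinc fingers, each a short fold held by a zinc ion, that read DNA sequence. Many carry a KRAB domain at the amino end, which recruits the co-repressor TRIM28 and, through it, histone methyltransferases and heterochromatin proteins. KRAB zinc finger genes arose largely by local duplication and lie in clusters, above all on chromosome 19. PRMT5 places symmetric dimethylation on arginines of histones and of RNA-binding proteins, among them the spliceosomal Sm proteins.

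ZNF302 and ZNF672 fell under EPZ015666 in all 6 comparisons of drug with vehicle, ZNF75A rose in 4 of them, and ZNF692, which lies next to ZNF672 on the other strand, rose in 4 and fell in 1. The promoters of these 4 genes are shown because ZNF302 and ZNF672 were called in all 6 comparisons, ZNF75A had the largest common rise, and ZNF692 is the neighbour of ZNF672. Each sequence holds the 250 bases before the RefSeq start on GRCh38.p14, read 5′ to 3′ on the gene's strand. Capitals mark matches on either strand to the GC box (spelled GGGCGG). They also mark the CCAAT box, searched as the letters of its name, and the motif bound by ETS factors (spelled CCGGAAG). ZNF302 lies at chr19:34677428-34677677 on the plus strand, ZNF672 at chr1:248837974-248838223 on the plus strand, ZNF692 at chr1:248859086-248859335 on the minus strand and ZNF75A at chr16:3305247-3305496 on the plus strand.
ZNF302: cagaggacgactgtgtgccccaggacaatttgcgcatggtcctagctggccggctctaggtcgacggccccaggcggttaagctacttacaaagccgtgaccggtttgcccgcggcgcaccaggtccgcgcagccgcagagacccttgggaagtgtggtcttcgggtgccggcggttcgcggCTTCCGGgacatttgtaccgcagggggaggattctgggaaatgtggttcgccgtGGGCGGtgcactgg
ZNF672: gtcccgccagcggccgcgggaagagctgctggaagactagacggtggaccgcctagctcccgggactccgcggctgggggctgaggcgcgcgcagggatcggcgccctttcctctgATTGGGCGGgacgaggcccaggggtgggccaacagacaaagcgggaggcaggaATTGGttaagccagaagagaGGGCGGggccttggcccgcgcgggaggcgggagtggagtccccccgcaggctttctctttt
ZNF692: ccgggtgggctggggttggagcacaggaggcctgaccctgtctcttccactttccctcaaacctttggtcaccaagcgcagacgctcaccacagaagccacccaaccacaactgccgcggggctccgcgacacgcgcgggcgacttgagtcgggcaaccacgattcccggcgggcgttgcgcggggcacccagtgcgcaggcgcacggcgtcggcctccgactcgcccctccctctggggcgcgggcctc
ZNF75A: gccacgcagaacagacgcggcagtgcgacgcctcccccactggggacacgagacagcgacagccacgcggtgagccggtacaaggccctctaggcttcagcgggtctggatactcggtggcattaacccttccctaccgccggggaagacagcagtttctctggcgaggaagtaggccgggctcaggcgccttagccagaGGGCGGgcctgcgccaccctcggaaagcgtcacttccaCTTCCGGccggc

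The ZNF302 and ZNF75A windows each hold 1 GC box and 1 ETS match. The ZNF672 window holds 2 GC boxes and 2 CCAAT boxes, and 1 of each overlap. The ZNF692 window holds none of the 8 motifs searched. RefSeq promoters were found for 80 of the 96 members. A GC box occurred in 68.8% of these 80 windows and in 42.3% of all 27305 windows of the same length. The ETS motif occurred in 35% of member windows and in 8.82% of all windows, and CCAAT in 42.5% and 33.0%. The cyclic AMP response element (TGACGTCA) occurred in 7.5% of member windows and 1.77% of all. A TATA box (TATAAA) was found in 3.75% of member windows and 11.1% of all. The E box (CACGTG) was found in 3.75% and 6.49%, the NRF1 motif (GCGCATGCG) in 1.25% and 1.78%, and the YY1 motif (AAGATGGCG) in 1.25% and 0.641%. The 27305 windows were not limited to genes at 1 RPKM or more, whereas the members were, so the sets are not matched for expression. The differences between them were not tested. A match is a description of letters and was not tied to binding.

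The recovered reads per library ran from 23.8 M to 45 M (median 27.8 M, where M stands for mega). Member reads made up 0.335% to 0.466% of them. Reads at 5 ribosomal RNA rows were 0.289% at the median and reached 4.54% in EPZ015666 replicate B of OVCAR8 at day 5. Without that library 14 members rose and 15 fell in OVCAR8 at day 5, against 18 and 18 with it. Leaving out a library acts on the calls of all genes, whose shares in that fit are not given here. These counts are therefore a description only. The epithelial keratin KRT18 and the mesenchymal filament VIM were above 7 RPKM in every library. KRT8 ran from 15.0 to 27.8 RPKM in the ovarian lines and was at most 0.0499 in BT549 and 1.40 in MDAMB436. KRT19 was at least 29.7 RPKM in COV362 and at most 0.172 in the other lines. EPCAM was at most 0.00251 RPKM in BT549 and 0.0741 in MDAMB436. KRT14 and CDH2, listed as basal or mesenchymal, were at most 0.334 and 1.27 RPKM. All levels of markers are per kilobase of gene span, introns included. A low value of a gene with long introns therefore does not show that it was nearly absent. The luminal gene GATA3 ran from 4.17 to 5.00 RPKM in BT549 and was at most 0.599 elsewhere. PGR, also listed as luminal, was at 0 RPKM in BT549 and at most 0.211 RPKM in OVCAR8. ESR1, the third luminal gene listed, was not matched in the table. PAX8, an ovarian marker, was at most 0.354 RPKM in COV362 and 0.0950 RPKM in OVCAR8. MSLN, a second ovarian marker, ran from 4.67 to 48 RPKM in the ovarian lines and reached 3.19 RPKM in BT549. WT1, also listed as ovarian, was at most 0.208 RPKM in COV362, 0.0622 in OVCAR8 and 0.202 in BT549. MUC16 was at most 0.712 RPKM in COV362, 0.150 in MDAMB436 and 0.000509 in OVCAR8. Of the 4 markers listed for other cell types PECAM1, an endothelial gene, was at most 0.116 RPKM and PTPRC was not matched in the table. The fibrillar collagen COL1A1 ran from 42.9 to 59.9 RPKM in BT549 and from 49.0 to 58.5 RPKM in OVCAR8, and was at most 0.760 RPKM in the other lines. COL3A1 ran from 20.6 to 50.4 RPKM in BT549 and was at most 0.0105 RPKM elsewhere. The part of such genes in the results was not tested. In bulk RNA, fewer cells of a kind and less RNA per cell cannot be told apart.

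Of the 96 members 93 are protein coding, and ZNF271P, ZNF252P and ZNF204P are annotated as pseudogenes. A KRAB A box was found in 37 of the 93 coding members (39.8%), against 186 of the 261 coding ZNF rows below the threshold. On chromosome 19 lay 34 members (35.4%), of which 18 had a KRAB A box, against 133 of the 271 other ZNF rows with a position. Members had a median of 9 C2H2 motifs and at most 31, and 2 had none. Their median gene span was 14.7 kb against 28.8 kb for the other ZNF rows, and their median GC content was 51.3% against 42.1%. The deposited RPKM divide by the whole gene span, introns included, so the rule took short genes. Per kilobase of exon 300 of 367 ZNF rows had at least 1 (81.7%), against 70.4% of the table, and the 96 members were among them. A threshold of 0.5 RPKM would have taken 180 rows and one of 2 RPKM 42 rows.

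The median member had a mean of 1.88 RPKM, below the 3.38 RPKM of all rows at or above the threshold. ZNF768 was highest at 17.9 RPKM, followed by ZNF24 at 9.90, ZNF703 at 9.88, ZNF579 at 9.03 and ZNF598 at 6.82 RPKM, all per kilobase of span. Just inside the threshold were ZNF101 at 1.01, ZNF395 at 1.04 and ZNF592 at 1.07 RPKM, and just outside ZNF264 at 0.996, ZNF16 at 0.977 and ZNF621 at 0.969 RPKM. The mean number of reads per library had a median of 1053 over members and was lowest, 162, for ZNF204P. Reads of ZNF324 could be shared with ZNF446, which overlaps it on the same strand, and 19 members overlap a gene on the other strand.

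Levels differed between lines in the vehicle libraries. In the DMSO libraries of day 5 the highest line of a member exceeded the lowest 2.14-fold at the median, and 56 members differed over 2-fold and 11 over 5-fold. Most members were highest in MDAMB436 (39) or COV362 (28), with 20 highest in BT549 and 9 in OVCAR8. The KRAB gene ZNF699 was at 8.25 ± 0.351 RPKM in OVCAR8 (SD, n = 2) and at 0.143 to 0.399 RPKM in the other lines. ZNF714 and ZNF431, neighbours on chromosome 19, were at 6.19 ± 0.159 and 2.91 ± 0.0673 RPKM in OVCAR8 and below 0.5 RPKM elsewhere. The pseudogene ZNF204P was at 7.69 ± 0.480 RPKM in OVCAR8 and listed at 0 in both DMSO libraries of MDAMB436. ZNF844 was at 1.74 RPKM in BT549 and 0.00591 RPKM in MDAMB436, ZNF467 was highest in COV362 at 9.45 RPKM, and ZNF436 in MDAMB436 at 9.24 RPKM. As the threshold is a mean over lines, 31 members were below it in at least 1 line, and 81 were tested in BT549, 82 in OVCAR8, 89 in COV362 and 84 in MDAMB436.

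Each comparison of EPZ015666 with DMSO was tested with limma on log2(RPKM + 1) over all genes of a line with a mean of at least 1 RPKM, and a gene was called at a Benjamini-Hochberg adjusted p under 0.05. Changes are given on that log2 scale, which understates the change of genes near 1 RPKM. At day 5 in BT549, 2 of 81 members rose and 19 fell, where 17.7% of all tested genes rose and 22.7% fell. In BT549 at day 3, 2 members rose and 8 fell, against 9.22% and 10.8% of all genes. In OVCAR8 at day 5, 18 of 82 rose and 18 fell, against 21.1% and 35.1%, and at day 3, 10 rose and 12 fell, against 15.6% and 21.4%. COV362 had 29 of 89 members up and 29 down, against 39.3% and 31.5% of all genes. MDAMB436 had 13 of 84 up and 20 down, against 19% and 23.2%. The share of members that rose in BT549 at day 5 was 2.47%, and in the other lines at day 5 it was 22.0% in OVCAR8, 32.6% in COV362 and 15.5% in MDAMB436. The share that fell lay within 2 percentage points of that of all genes in 4 of the 6 comparisons and below it in OVCAR8 on both days.

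The split between directions depended on how values were scaled. Scaling libraries by the median of ratios gave 27 risen and 17 fallen members in OVCAR8 at day 5. A correction for GC content and span gave 33 risen and 10 fallen there, 9 and 24 in BT549 at day 5, and 14 and 9 in OVCAR8 at day 3. Both settings act on all genes. Counts under them, here or below, cannot be set against the shares of all genes given for the fit reported. Member changes were mostly small, from -0.46 to 0.31 on the log2 scale in BT549 at day 5 and from -1.44 to 0.66 in COV362. In COV362, 9 members were at least 1.5-fold lower and 2 at least 1.5-fold higher with the drug. Of the calls, 4 of 21 in BT549 at day 5, 2 of 10 in BT549 at day 3, 22 of 36 and 9 of 22 in OVCAR8 at day 5 and day 3, 44 of 58 in COV362 and 13 of 33 in MDAMB436 held whichever library was left out.

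**Figure D1:**
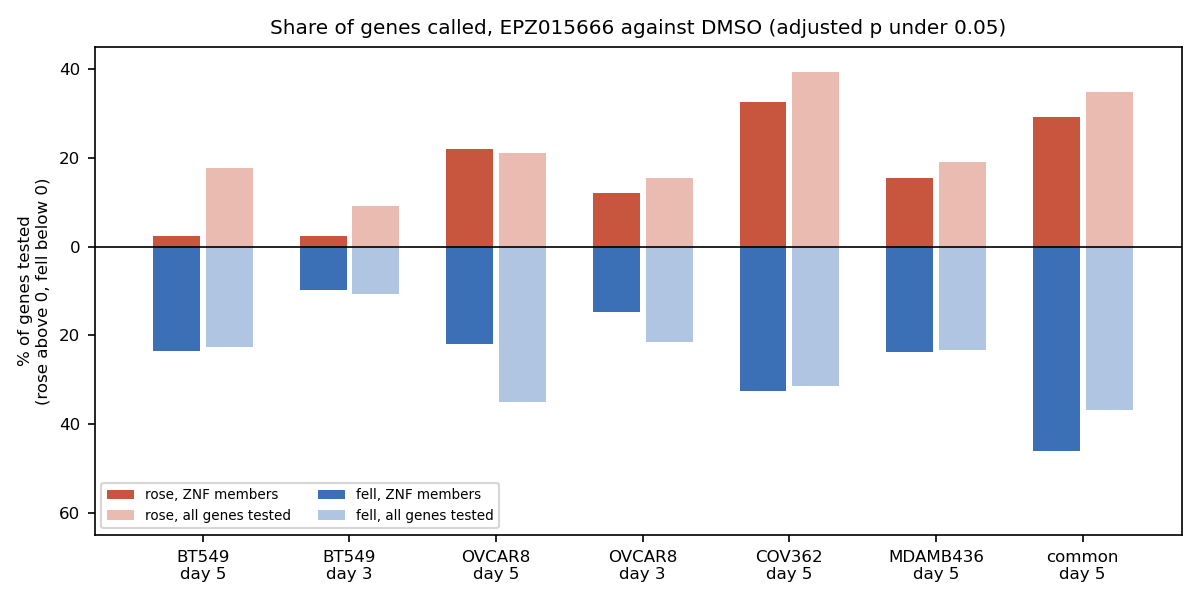
Percent of members and of all tested genes that rose or fell (adjusted p under 0.05, limma) in 7 comparisons of EPZ015666 with DMSO. In BT549 at day 5 the bar of risen members, 2.47%, is far shorter than that of all genes, 17.7%, while in COV362 members rose in 32.6% and fell in 32.6%.

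Across the 6 comparisons 46 members rose in at least 1, 53 fell in at least 1, 13 did both and 10 were called in none. Of all 6494 rows with a mean of at least 1 RPKM, 53.6% rose in at least 1, 55.8% fell in at least 1, 19.2% did both and 9.7% were called in none, and the members' shares were 47.9%, 55.2%, 13.5% and 10.4%. ZNF302 and ZNF672 fell in 6, as 2.97% of all these rows did, and ZNF217 and ZNF865 in 4. ZNF75A and ZNF692 rose in 4. Of all these rows 11.7% fell and 7.75% rose in at least 4, against 4.17% and 2.08% of the members. In the other cases a member was called in fewer than 4 comparisons in either direction.

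ZNF302, a KRAB gene at chr19:34677639-34686397 on the plus strand of GRCh38, fell most in COV362. Its DMSO libraries there were at 5.74 and 6.28 RPKM and its EPZ015666 libraries at 3.19 and 3.20, a change of -0.74 ± 0.044 (SE, adjusted p = 0.000375). In BT549 it went from 3.68 and 3.32 to 2.54 and 2.67 RPKM at day 5 (-0.32, adjusted p = 0.00285) and from 3.25 and 3.26 to 2.35 and 2.49 at day 3 (-0.32, adjusted p = 0.00723). The drop in BT549 was thus of like size on the 2 days. In OVCAR8 it went from 2.87 and 2.96 to 1.99 and 2.22 RPKM at day 5 (-0.34, adjusted p = 0.00337) and from 2.73 and 2.87 to 2.01 and 2.31 at day 3 (-0.27, adjusted p = 0.0134). In MDAMB436, where it was lowest, it went from 2.24 and 2.38 to 1.70 and 1.92 RPKM (-0.24, adjusted p = 0.0207). No drug library of ZNF302 reached its DMSO libraries in any comparison, and such a gap was found for every called member. The day 3 call in OVCAR8 was lost without DMSO replicate B (-0.24, adjusted p = 0.0738) or EPZ015666 replicate A (-0.20, adjusted p = 0.0519), and the call in MDAMB436 without DMSO replicate B (-0.21, adjusted p = 0.0709) or EPZ015666 replicate A (-0.18, adjusted p = 0.0857) or with no filter on low values (adjusted p = 0.0895).

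ZNF672, at chr1:248838210-248849517 on the plus strand, has 13 C2H2 motifs and no KRAB A box. In COV362 it went from 4.75 and 4.64 RPKM to 2.36 and 2.44, a change of -0.74 ± 0.029 (SE, adjusted p = 0.000198). BT549 libraries of day 5 went from 4.68 and 4.76 to 3.17 and 3.13 RPKM (-0.46, adjusted p = 0.00354). In MDAMB436, where it was highest, it went from 6.29 and 5.85 to 4.51 and 4.66 RPKM (-0.34, adjusted p = 0.00675). Drug and vehicle libraries were thus apart in each of these lines, as they were for every called member. In OVCAR8 at day 5 it went from 4.18 and 4.66 to 3.47 and 3.23 RPKM (-0.32, adjusted p = 0.00286), a call that the correction for GC content and span ended (-0.14, adjusted p = 0.0532). The day 3 changes were smaller, -0.28 in BT549 (adjusted p = 0.0464) and -0.18 in OVCAR8 (adjusted p = 0.0360). The BT549 day 3 call was lost without DMSO replicate B (-0.17, adjusted p = 0.145) or EPZ015666 replicate B (-0.20, adjusted p = 0.199) of day 3 or any 1 of the day 5 libraries (-0.28, adjusted p = 0.0761 to 0.0811), and the OVCAR8 day 3 call without any 1 of the 4 day 3 libraries, with a largest adjusted p of 0.161 without DMSO replicate A (-0.15). Both day 3 calls of ZNF672 were also lost with a replicate block (adjusted p = 0.0778 in BT549 and 0.0625 in OVCAR8) and with no filter on low values (adjusted p = 0.119 and 0.0778). In BT549 the day 3 call was lost with the 4 libraries compared alone (adjusted p = 0.120), and in OVCAR8 after correction for GC content and span (-0.10, adjusted p = 0.138).

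ZNF692, at chr1:248850006-248859144 on the minus strand, ends within 1 kb of ZNF672. At day 5 in BT549 it rose from 2.32 and 2.31 to 3.02 and 2.89 RPKM (0.26, adjusted p = 0.00850), a call lost without EPZ015666 replicate A (0.23, adjusted p = 0.0628). In OVCAR8 it rose at day 3 from 2.29 and 2.11 to 2.76 and 2.63 RPKM (0.21, adjusted p = 0.0295) and fell at day 5 from 2.75 and 2.84 to 2.03 and 2.36 RPKM (-0.25, adjusted p = 0.00960). The difference between those days was -0.46 (adjusted p = 0.0342), and the DMSO libraries themselves went from 2.20 to 2.80 RPKM at the mean between day 3 and day 5. The fall at day 5 was not past the threshold after correction for GC content and span (-0.087, adjusted p = 0.209). Its rises in BT549 at day 3 (0.20), OVCAR8 at day 3 and COV362 (0.19) each lost their call when a library was left out: without EPZ015666 replicate A of day 3 in BT549 (0.18, adjusted p = 0.119), DMSO replicate B of day 3 in OVCAR8 (0.17, adjusted p = 0.142) and DMSO replicate A in COV362 (0.18, adjusted p = 0.134), among others. All 3 of these ZNF692 calls were lost with no filter on low values (adjusted p = 0.0859, 0.0698 and 0.126), and both day 3 calls with a replicate block (adjusted p = 0.0721 and 0.0523). The 4 libraries alone ended the call in BT549 at day 3 (adjusted p = 0.136) and median-of-ratios scaling that in COV362 (0.16, adjusted p = 0.0639).

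ZNF75A, at chr16:3305406-3318852, rose in both ovarian lines. In OVCAR8 at day 5 it went from 1.89 and 1.73 to 2.84 and 2.80 RPKM, a change of 0.44 ± 0.040 (SE, adjusted p = 0.000287), and at day 3 from 2.12 and 2.06 to 3.01 and 3.25 RPKM (0.42, adjusted p = 0.000764). In COV362 it went from 1.81 and 1.87 to 2.68 and 2.70 RPKM (0.38, adjusted p = 0.000558). In MDAMB436 it went from 1.24 and 1.29 to 1.49 and 1.47 RPKM (0.13, adjusted p = 0.0303), which was lost without EPZ015666 replicate A (0.12, adjusted p = 0.166), EPZ015666 replicate B (0.14, adjusted p = 0.137) or DMSO replicate A (0.11, adjusted p = 0.0832) and with replicate letters as a block (adjusted p = 0.0632) or no filter on low values (adjusted p = 0.0605). In BT549 the changes of 0.13 and 0.16 did not pass, although drug libraries were above vehicle libraries on both days. ZNF263, the neighbouring KRAB gene at chr16:3263800-3301401, rose in COV362 from 1.25 and 1.23 to 1.87 and 2.09 RPKM (0.41, adjusted p = 0.00158) and in MDAMB436 from 1.20 and 1.22 to 1.64 and 1.66 RPKM (0.26, adjusted p = 0.00513). TIGD7 overlaps both genes on the other strand.

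**Figure D2:**
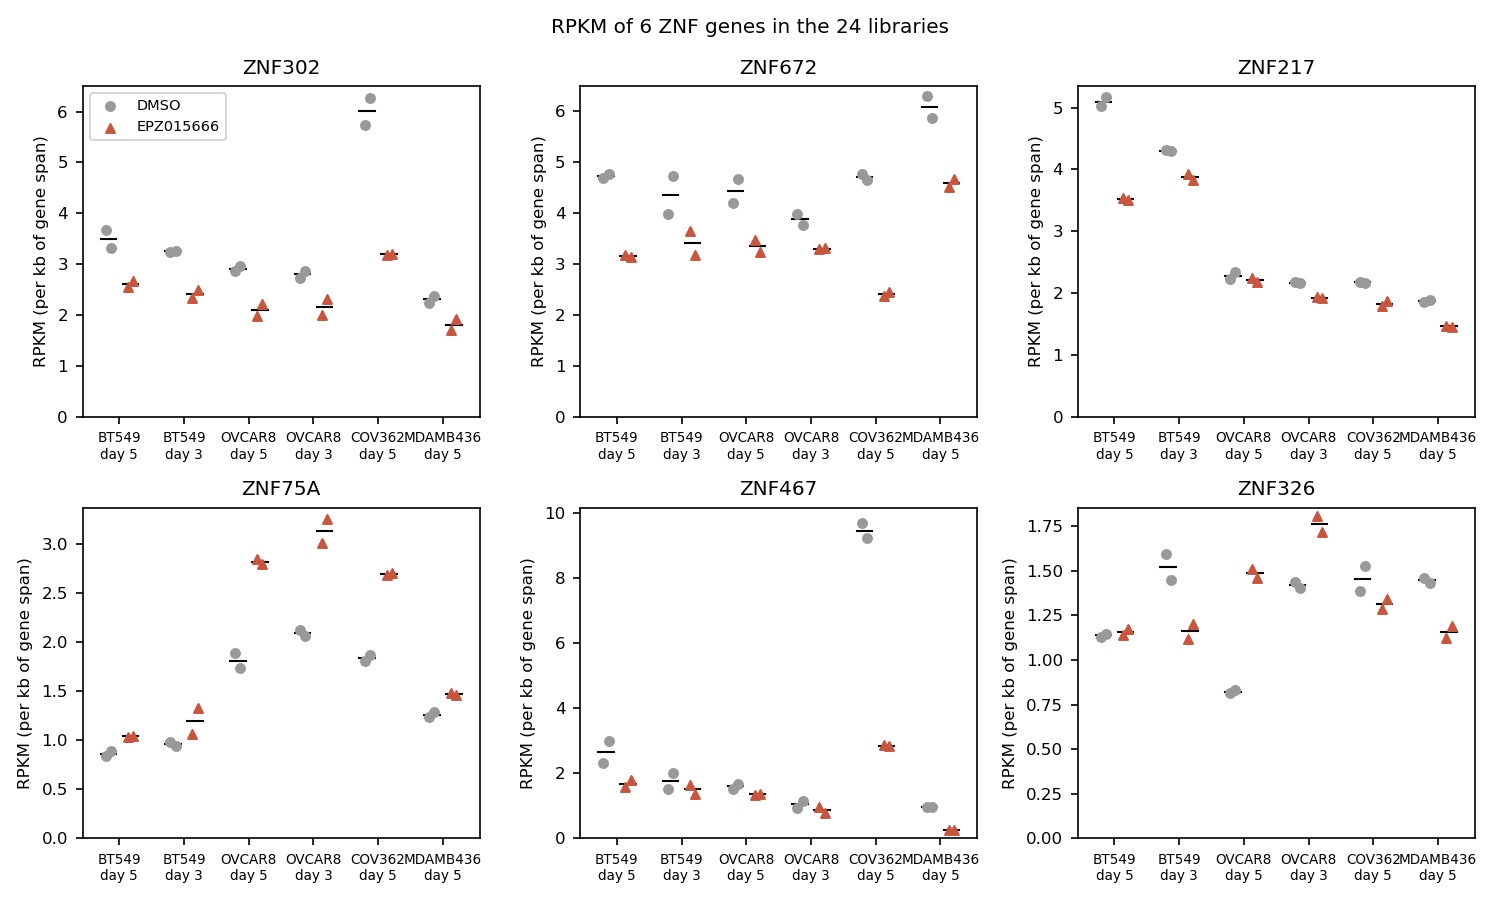
RPKM per library of ZNF302, ZNF672, ZNF217, ZNF75A, ZNF467 and ZNF326 by line and day, with grey circles for DMSO, red triangles for EPZ015666 and bars for the mean of 2 libraries. Red triangles lie below grey circles for ZNF302 and ZNF672 in each comparison and above them for ZNF75A, and ZNF467 drops from above 9 to below 3 RPKM in COV362.

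Of the changes tested in members, the largest on the log2(RPKM + 1) scale was in ZNF467, a C2H2 gene without a KRAB A box, in COV362, where it was most abundant. It fell from 9.69 and 9.22 to 2.87 and 2.83 RPKM, a ratio of 0.302 and a change of -1.44 ± 0.033 (SE, adjusted p = 9.97e-05). In MDAMB436 it had 0.958 and 0.957 RPKM with DMSO and 0.269 and 0.246 with the drug, a ratio of 0.269, but this lay below the level for testing in that line. In BT549 at day 5 it went from 2.30 and 3.00 to 1.57 and 1.79 RPKM (-0.44, adjusted p = 0.0228), a call lost without DMSO replicate B (-0.30, adjusted p = 0.119), EPZ015666 replicate A (-0.38, adjusted p = 0.117) or EPZ015666 replicate B (-0.50, adjusted p = 0.0541), and with no filter on low values (adjusted p = 0.0828).

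ZNF217, an oncogene amplified in breast cancer, fell most in BT549, the line where it was highest. Its level went from 5.02 and 5.16 to 3.55 and 3.51 RPKM at day 5 (-0.43 ± 0.038 SE, adjusted p = 0.000265). At day 3 the change of -0.12 did not pass (adjusted p = 0.0635), and the difference between days was -0.31 (adjusted p = 0.0315). That difference was lost when 1 library was left out in 7 of 8 cases, with the largest adjusted p, 0.157, without EPZ015666 replicate A of day 5 (-0.31). It also fell in COV362 from 2.18 and 2.17 to 1.78 and 1.87 RPKM (-0.17) and in MDAMB436 from 1.85 and 1.88 to 1.47 and 1.45 RPKM (-0.22, adjusted p = 0.00748). In OVCAR8 its day 5 groups overlapped, and the day 3 fall of -0.11 lost its call without any 1 of the 4 day 3 libraries (adjusted p = 0.0607 to 0.0965). ZNF703, amplified in luminal breast cancer, fell in MDAMB436 from 5.57 and 5.13 to 3.56 and 3.85 RPKM (-0.43, adjusted p = 0.00601) and in COV362 from 11.5 and 11.8 to 9.50 and 9.42 RPKM (-0.27, adjusted p = 0.00111). In BT549 and OVCAR8 its changes of -0.08 to 0.12 did not pass.

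A few members with known roles outside DNA binding were called in 1 or 2 lines. ZNF598, an E3 ubiquitin ligase that recognises collided ribosomes, rose in COV362 from 6.36 and 6.47 to 11.0 and 10.4 RPKM (0.66 ± 0.035 SE, adjusted p = 0.000299) and did not pass in the other comparisons. ZNF622, which acts in maturation of the large ribosomal subunit, rose in COV362 from 4.62 and 4.74 to 5.96 and 6.51 RPKM (0.35, adjusted p = 0.00266) and in MDAMB436 from 6.61 and 6.95 to 8.74 and 9.11 RPKM (0.35, adjusted p = 0.00567). In BT549 and OVCAR8 its groups overlapped. ZNF207, which binds the spindle checkpoint protein BUB3, rose by 0.12 in OVCAR8 at day 5 (adjusted p = 0.0415), a call lost without DMSO replicate B (0.10, adjusted p = 0.149) or any other day 5 or EPZ015666 day 3 library and after correction for GC content and span (0.0092, adjusted p = 0.866).

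ZNF326, part of the DBIRD complex that couples RNA polymerase II to splicing, moved in opposite directions in different lines. In OVCAR8 at day 5 it rose from 0.813 and 0.829 to 1.51 and 1.46 RPKM (0.45 ± 0.027 SE, adjusted p = 7.76e-05), and at day 3 from 1.44 and 1.41 to 1.81 and 1.72 RPKM (0.19, adjusted p = 0.00330). Its DMSO level fell between day 3 and day 5 (-0.41, adjusted p = 0.000878), so the drug libraries of day 5 were near the DMSO libraries of day 3. In BT549 at day 3 it fell from 1.60 and 1.45 to 1.12 and 1.20 RPKM (-0.22, adjusted p = 0.0130), lost without EPZ015666 replicate A (-0.19, adjusted p = 0.0504) or with the 4 libraries alone (adjusted p = 0.0673). In MDAMB436 it fell from 1.46 and 1.43 to 1.12 and 1.19 RPKM (-0.18, adjusted p = 0.0144), lost without EPZ015666 replicate A (-0.16, adjusted p = 0.0960) or B (-0.20, adjusted p = 0.0537).

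ZNF714, ZNF431, ZNF699 and ZNF204P, which were below 1 RPKM in the vehicle libraries of the other lines, were looked at together after their levels were seen. On both days 3 of these 4 fell in OVCAR8, where 35.1% of all genes tested fell at day 5 and 21.4% at day 3, so their count is a description only. ZNF714 went from 6.08 and 6.30 to 3.85 and 3.75 RPKM at day 5 (-0.58 ± 0.028 SE, adjusted p = 4.02e-05) and from 8.41 and 8.29 to 5.76 and 5.70 RPKM at day 3 (-0.47, adjusted p = 0.000188). Its neighbour ZNF431 went from 2.86 and 2.96 to 2.20 and 2.23 RPKM at day 5 (-0.28) and fell by 0.33 on the log2 scale at day 3. ZNF699 went from 8 and 8.50 to 6.23 and 5.74 RPKM at day 5 (-0.41, adjusted p = 0.000817) and fell by 0.35 at day 3. The exception was ZNF204P, whose OVCAR8 groups overlapped on both days. ZNF414 fell in OVCAR8 at day 5 from 5.62 and 5.95 to 3.91 and 3.68 RPKM (-0.50, adjusted p = 0.000162) but overlapped at day 3 (difference between days -0.48, adjusted p = 0.0257). That difference was lost when any 1 of the 8 libraries was left out, with the largest adjusted p, 0.0991, without DMSO replicate B of day 3 (-0.50).

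ZNF274, a KRAB protein known to recruit the methyltransferase SETDB1 to the ends of other ZNF genes, rose in COV362 from 1.55 and 1.59 to 2.32 and 2.28 RPKM (0.36, adjusted p = 0.000558) and had differences of -0.03 to 0.04 elsewhere that did not pass. ZNF24 rose in MDAMB436 from 11.8 and 12.7 to 15.8 and 16.3 RPKM (0.36, adjusted p = 0.00668). The pseudogene ZNF252P fell in COV362 from 1.97 and 2.01 to 0.943 and 1.04 RPKM (-0.59, adjusted p = 0.000350). ZNF517, a KRAB gene, fell in COV362 from 2.35 and 2.45 to 1.28 and 1.29 RPKM (-0.57, adjusted p = 0.000264). Drug and vehicle libraries of both genes were apart in that line, as they were for every called member. ZNF512B rose in OVCAR8 at day 5 (0.21, adjusted p = 0.00838) and fell in COV362 (-0.25, adjusted p = 0.00170) and MDAMB436 (-0.34, adjusted p = 0.00535). ZNF524 fell in BT549 at day 5 (-0.44) and COV362 (-0.54), and its fall in OVCAR8 at day 5 (-0.33) was not past the threshold after correction for GC content and span (-0.051, adjusted p = 0.453).

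Other members were among the largest called changes of a comparison. ZNF408, with 10 C2H2 motifs and no KRAB A box, rose in COV362 from 4.12 and 4.44 to 6.01 and 6.15 RPKM (0.42, adjusted p = 0.00106). ZNF330, without a C2H2 motif, rose in MDAMB436 from 4.94 and 5.02 to 6.44 and 6.94 RPKM (0.36, adjusted p = 0.00596) and in COV362 (0.23), but fell in OVCAR8 at day 5 from 6.37 and 5.82 to 5.12 and 5.00 RPKM (-0.23, adjusted p = 0.00459). ZNF330 was thus called in opposite directions in different lines, and none of these calls was lost when a library was left out.

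ZNF219 fell in MDAMB436 from 3.57 and 3.05 to 2.08 and 2.22 RPKM (-0.45, adjusted p = 0.00863), a call lost with no filter on low values (adjusted p = 0.0632). ZNF219 rose in OVCAR8 at day 3 from 2.40 and 2.30 to 3.28 and 2.86 RPKM (0.28, adjusted p = 0.00787). Its smaller calls in COV362 (-0.083) and in OVCAR8 at day 5 (0.17) were lost without any 1 of the 4 libraries compared, with a largest adjusted p of 0.166 and 0.123. The KRAB gene ZNF707 rose in OVCAR8 from 0.735 and 0.744 to 1.19 and 1.11 RPKM at day 5 (0.30, adjusted p = 0.000360), at day 3 (0.20, adjusted p = 0.00351) and in COV362 (0.26, adjusted p = 0.00409). For ZNF219 and ZNF707 alike, drug and vehicle libraries were apart in each of these comparisons, as they were for every called member. ZNF256, a KRAB gene on chromosome 19, rose in MDAMB436 from 1.28 and 1.27 to 1.72 and 1.84 RPKM (0.29, adjusted p = 0.00596) and in COV362 (0.31, adjusted p = 0.0135), the latter lost with no filter on low values (adjusted p = 0.0621). ZNF212, another KRAB gene, rose in OVCAR8 at day 3 (0.21, adjusted p = 0.0310), a call lost without DMSO replicate A of day 3 (0.17, adjusted p = 0.143), among others, and with no filter on low values (adjusted p = 0.0725).

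ZNF691 fell in COV362 from 2.60 and 2.71 to 1.56 and 1.79 RPKM (-0.45, adjusted p = 0.00176), with a common effect of -0.21. ZNF526 fell in OVCAR8 at day 5 from 1.76 and 2.06 to 1.38 and 1.15 RPKM (-0.36, adjusted p = 0.00551), a call lost after correction for GC content and span (-0.19, adjusted p = 0.0578), with a common effect of -0.19. ZNF260 fell in OVCAR8 at day 3 from 1.97 and 1.84 to 1.46 and 1.44 RPKM (-0.25, adjusted p = 0.00605) and in COV362 (-0.28, adjusted p = 0.00294). For these 3 genes the drug libraries lay below the vehicle libraries in the comparisons named, as they did for every member called as fallen. ZNF629, with 19 C2H2 motifs, fell in BT549 at day 3 from 6.84 and 7.46 to 6.16 and 5.95 RPKM (-0.21, adjusted p = 0.0486), a call lost with a replicate block (adjusted p = 0.0654), with the 4 libraries alone (adjusted p = 0.135) and without EPZ015666 replicate B of day 3 (-0.19, adjusted p = 0.176), among others. ZNF706 fell in BT549 at day 5 from 2.42 and 2.48 to 2.01 and 2.10 RPKM (-0.18, adjusted p = 0.0170), a call lost without any 1 of the 4 day 5 libraries, with a largest adjusted p of 0.116. Among the lowest members ZNF853, at a mean of 1.08 RPKM, fell in COV362 (-0.29, adjusted p = 0.00107), and ZNF584 had a mean of 1.09 RPKM.

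The mean of the 4 day 5 effects was tested in 1 fit of all 24 libraries for the 65 members at 1 RPKM or more in each line. Of these 19 rose and 30 fell, against 34.8% and 36.9% of all 4721 genes tested, with a median of -0.05 against 0.00. After correction for GC content and span, which was applied to all genes, 22 rose and 22 fell. The common effect had the same sign in each line for 6 of the risen and 17 of the fallen members. The share of all genes with the same sign in each line is not given here, so these counts are a description only. ZNF672 (-0.46 ± 0.031 SE, adjusted p = 2.48e-09) and ZNF302 (-0.41 ± 0.028 SE, adjusted p = 2.93e-09) had the largest falls. ZNF75A rose most (0.27 ± 0.022 SE, adjusted p = 2.38e-08), followed by ZNF598 (0.24), ZNF121 (0.24) and ZNF263 (0.21). ZNF598 did not have the same sign in each line and was called in COV362 alone. In MDAMB436 it was at 9.34 and 8.53 RPKM with DMSO and 8.54 and 8.98 RPKM with the drug. ZNF358 (-0.24), ZNF579 (-0.24), ZNF865 (-0.23) and ZNF696 (-0.21) fell, with a negative difference in each line, but were not past the threshold after the correction, with adjusted p of 0.568, 0.284, 0.299 and 0.0998.

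**Figure D3:**
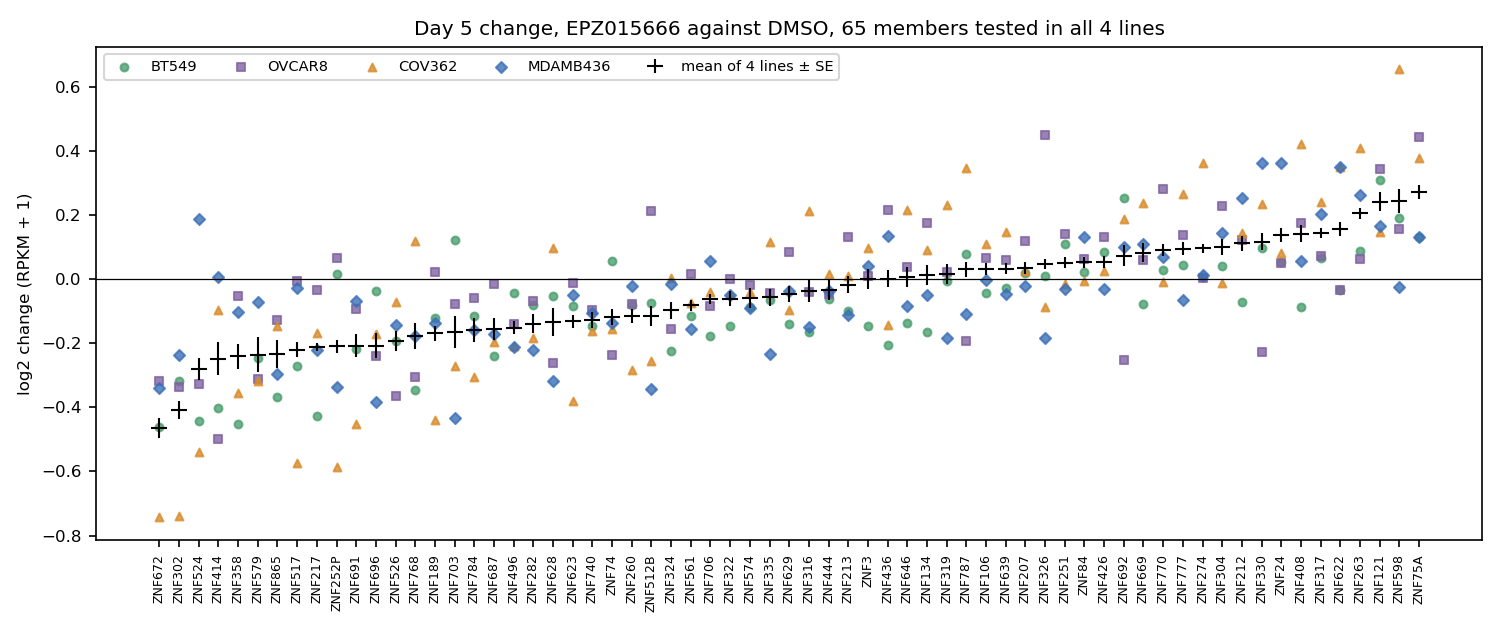
Log2 change of EPZ015666 against DMSO at day 5 in each of the 4 lines for the 65 members tested in all of them, with the common effect and its standard error. ZNF672 and ZNF302 lie at the low end (-0.46 and -0.41) and ZNF75A at the high end (0.27).

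The effect at day 5 differed between lines for 47 of the 65 members by limma's F test, against 74.7% of all genes. The smallest adjusted p was that of ZNF326 (1.48e-07), followed by ZNF252P (2.73e-07) and ZNF217 (1.53e-06). The effect differed between day 5 and day 3 for 2 of 81 members in BT549, against 5.97% of all genes, and for 5 of 82 in OVCAR8, against 7.46%. Comparisons of drug and interaction share their DMSO libraries. Between the DMSO libraries of day 3 and day 5 in BT549, ZNF217 rose and ZNF326 fell, where 10.7% of all genes rose and 6.02% fell. In OVCAR8 11 members rose and 10 fell with days in DMSO, against 20.7% and 15.9% of all genes.

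On chromosome 19 the ZNF rows formed 19 clusters with gaps under 500 kb, and most members lay in 3 of them. The first, at chr19:8509678-9793180, holds 8 members among 11 rows, the second, at chr19:55476332-56671783, 7 among 15, and the third, at chr19:57191500-58481230, 8 among 25. The cluster at chr19:51571298-53580269, the largest with 28 rows, holds no member. Of the 21 chromosome 19 members in the common test 5 rose and 12 fell (median -0.10), against 14 and 18 of 44 elsewhere (median -0.01). In OVCAR8 at day 5, 5 of 27 rose and 11 fell on chromosome 19, against 13 and 7 of 55 elsewhere. At day 3 in that line limma called 0 risen and 6 fallen of 27 on chromosome 19 (2 were higher at an unadjusted p below 0.05, and limma-voom on recovered reads called 1 risen), against 10 and 6 of 55 elsewhere. Elsewhere among the lines the counts were 8 risen and 8 fallen of 29 against 21 and 21 of 60 in COV362, 4 and 5 of 28 against 9 and 15 of 56 in MDAMB436, and 1 and 9 of 29 against 1 and 10 of 52 in BT549 at day 5. For BT549 at day 3 limma called 0 risen (0 higher at an unadjusted p below 0.05, and 0 by limma-voom) and 4 fallen of 29, against 2 and 4 of 52. Of all genes tested, 34.8% rose and 36.9% fell in the common test, and 21.1% and 35.1% in OVCAR8 at day 5. The shares were 15.6% and 21.4% in OVCAR8 at day 3, 39.3% and 31.5% in COV362, and 19% and 23.2% in MDAMB436. In BT549 they were 17.7% and 22.7% at day 5 and 9.22% and 10.8% at day 3. The difference between the positions was not tested. After correction for GC content and span the chromosome 19 counts were 6 and 6 in the common test and 9 and 7 in OVCAR8.

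The second cluster carried 5 of the 12 common falls, in a test where 34.8% of all genes rose and 36.9% fell. Its 7 members, ZNF628, ZNF579, ZNF524, ZNF865, ZNF784, ZNF787 and ZNF444, have no KRAB A box and a GC content of 57.8% to 71.1%. ZNF524 fell by 0.28, ZNF579 by 0.24, ZNF865 by 0.23, ZNF784 by 0.16 and ZNF628 by 0.13 in the common effect, with a median of -0.16 over the 7. After correction for GC content and span 2 of the 7 rose and 1 fell, with a median of 0.01. ZNF524 also rose in MDAMB436 (0.19, adjusted p = 0.0220), a call lost without EPZ015666 replicate A (0.18, adjusted p = 0.103) or B (0.20, adjusted p = 0.0884). In the first cluster 3 of 5 tested members rose and 2 fell in the common test, with ZNF121 (0.24) and ZNF317 (0.15) among the risen and ZNF414 (-0.25) among the fallen. In the third cluster 2 of 4 rose and 1 fell. Neighbours within each of these latter clusters therefore moved in both directions in the common test. In the cluster that holds ZNF524 all calls of that test were falls, and ZNF787 (0.03) and ZNF444 (-0.03) did not pass.

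**Figure D4:**
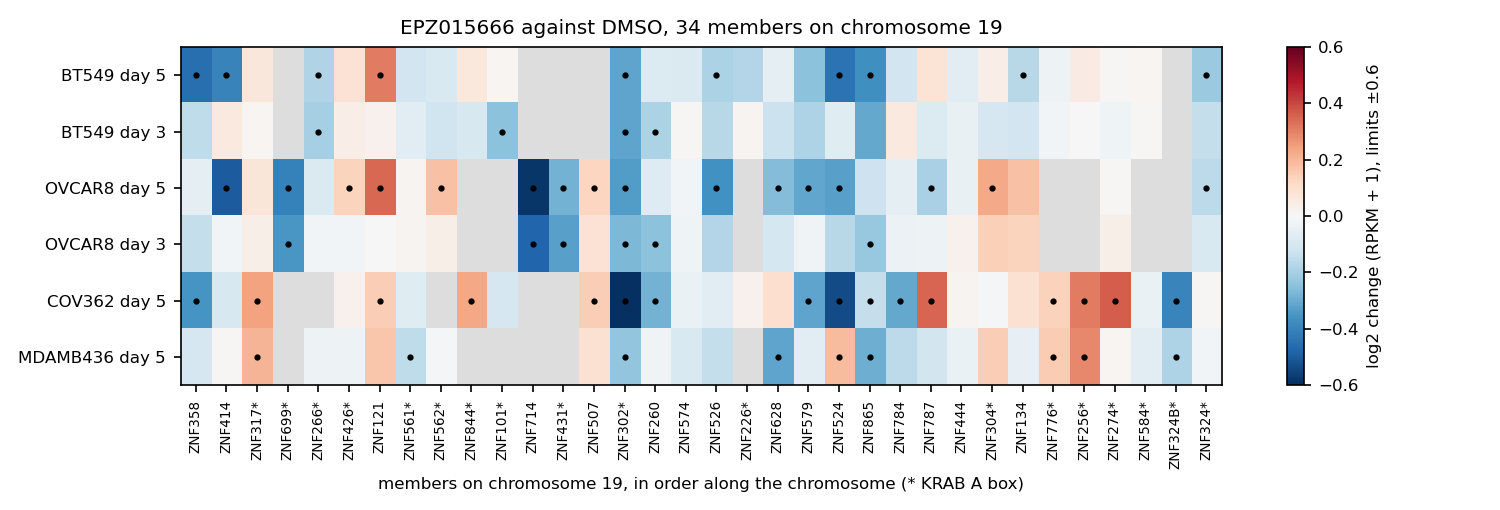
Heat map of the log2 change in each comparison for the 34 members on chromosome 19 in order along the chromosome, with dots for called changes, asterisks for a KRAB A box and grey for members not tested in a line. The scale ends at 0.6 in each direction, and ZNF302 in COV362 (-0.74) lies beyond it.

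Counts were also taken by the KRAB A box, beside 34.8% of all genes that rose and 36.9% that fell in the common test. Of 21 KRAB members in the common test 10 rose and 7 fell (median 0.00), and of 43 without a KRAB A box 9 rose and 22 fell (median -0.06). On chromosome 19 the members without a KRAB A box counted 1 risen and 9 fallen of 14, and those with one 4 and 3 of 7. After the correction for GC content and span members without a KRAB A box counted 12 and 15. The difference between the classes was not tested. Across the 65 members, which share libraries, the common effect had a Spearman rho of -0.34 with GC content and 0.34 with gene span, and of -0.10 with the number of C2H2 motifs over 64.

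The proteins through which KRAB zinc fingers silence chromatin were followed as a list of 35 genes, 33 of them in the table. In the common test 5 of 17 rose and 8 fell, against 34.8% and 36.9% of all genes. TRIM28, the KRAB co-repressor, fell by 0.16 (adjusted p = 0.00119). Its mean level fell from 91.5 to 74.9 RPKM in OVCAR8 at day 5 (adjusted p = 0.00339), from 87.7 to 78.5 RPKM there at day 3 (adjusted p = 0.0449) and from 124 to 104 RPKM in MDAMB436 (adjusted p = 0.0264). It was not past the threshold in COV362, at 162 and 155 RPKM (adjusted p = 0.0923), or in BT549, at 67.7 and 66.3 RPKM at day 5 (adjusted p = 0.812) and 76.0 and 68.5 RPKM at day 3 (adjusted p = 0.294). The histone methyltransferase EHMT2 fell by 0.36 and the NuRD subunits MTA1 and CHD3 by 0.30 and 0.23, while MTA2 rose by 0.14. At day 5 CHD3 did not pass in OVCAR8 (0.029, adjusted p = 0.426), nor MTA2 in MDAMB436 (-0.034, adjusted p = 0.535). SETDB1, which was not in the common test, fell in COV362 (-0.19, adjusted p = 0.00475) and did not pass in MDAMB436 (0.019, adjusted p = 0.663). Among other zinc finger families 3 of 15 ZBTB genes rose and 9 fell, 3 of 4 ZFP genes fell, and 3 of 6 KLF genes rose and 1 fell, beside the same 34.8% and 36.9%. The ZSCAN and ZKSCAN, ZC3H, ZMYM and ZDHHC families were also listed, and their counts are not given here.

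The genes whose levels ran most like those of a few members over the 24 libraries, after each line's and day's mean was taken off, were found among 6494 genes. For ZNF672 they were MAGED1 (Pearson r 0.981), LY6E (0.974) and WDR34 (0.971). For ZNF302 they were IFI35 (0.972), GDF11 (0.968) and AHCYL1 (0.962). For ZNF75A they were MARS (0.970), GPT2 (0.957) and PPP2R1B (0.955). These values describe libraries that share treatment.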

How the data were processed

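The table deposited by the authors holds RPKM. Reads were counted with featureCounts on GRCh38, per the submitters' processing notes. The sources used here give neither versions nor an aligner or annotation. Multiplied by gene spans of GENCODE 29, at least 99.957% of the nonzero values of each library gave whole reads within 0.02 of a read. Levels are therefore per kilobase of gene span.

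The members, lists and tests were chosen with earlier results of these data known. Each line was fitted with limma 3.58.1 in R 4.3.3 (trend, 1 mean per group, no replicate block) on log2(RPKM + 1), with genes at a mean of at least 1 RPKM in the line and Benjamini-Hochberg adjustment over all of them. Tables and figures were made with Python 3.11.15, numpy 2.4.6, pandas 2.3.3 and matplotlib 3.10.9. The script was tested on simulated data. Groups came from the labels.

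Named members are the 5 largest called rises and falls per comparison with groups apart, up to 10 each way in the common effect with the same sign in each line, the 5 smallest p of the tests between lines and days, the highest and lowest levels, and a fixed list of members with known roles. ZNF844, ZNF436, ZNF204P and the members of 1 chromosome 19 cluster were named after their values were seen. The KRAB A box was scored with a 38-residue profile from 173 proteins on translated GENCODE coding sequences, with a minimum score of 20, where a RefSeq protein table had been planned. Promoters came from RefSeq. Alternatives were a pseudocount of 0.1, no filter, median-of-ratios scaling, a replicate block, 1 fit of all libraries, the 4 libraries compared alone, limma-voom on recovered reads of at least 1 CPM, correction for GC content and span by lowess with a span of 0.3, and leaving out each library.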

Additional observations from a re-analysis of the deposited data

Results flagged for a closer look

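The EPZ015666 effect at day 5 differed between the 4 lines for 47 of 65 members by limma's F test, against 74.7% of all genes tested. The smallest adjusted p-values were 1.48e-07 for ZNF326, 2.73e-07 for ZNF252P, 1.53e-06 for ZNF217, 4.09e-06 for ZNF274 and 8.97e-06 for ZNF517. Between day 5 and day 3 the effect differed for 2 of 81 members in BT549 (5.97% of all genes), ZNF217 (adjusted p = 0.0315) and ZNF101 (adjusted p = 0.0461). In OVCAR8 it differed for 5 of 82 (7.46% of all genes), namely ZNF414 (adjusted p = 0.0257), ZNF326 (adjusted p = 0.0281), ZNF692 (adjusted p = 0.0342), ZNF770 (adjusted p = 0.0356) and ZNF121 (adjusted p = 0.0366). The differences were -0.31 for ZNF217, 0.26 for ZNF101, -0.48 for ZNF414, 0.26 for ZNF326, -0.46 for ZNF692, 0.24 for ZNF770 and 0.35 for ZNF121. The 5 calls in OVCAR8 were each lost when any 1 of its 8 libraries was left out. In BT549 the calls of ZNF217 and ZNF101 were lost in at least 7 of 8 such cases.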

How the results depend on the processing

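Among single-gene results under the alternatives, 1764 kept their direction and side of the threshold, 163 lost the call, 29 gained one and 3 reversed. The reversals came with the correction for GC content and span: ZNF703, OVCAR8 day 5 (0.203), ZNF598, MDAMB436 day 5 (0.131) and ZNF326, BT549 day 5 (-0.0984), none of which passed in the fit reported. The cause was not tested. The count of called members in BT549 at day 5, 21, was 32 in 1 fit of all libraries, 32 with voom and 33 with the correction. In BT549 at day 3, 10 calls became 3 with the 4 libraries alone, 24 in 1 fit, 20 with voom and 23 with the correction. In OVCAR8 at day 3, 22 became 34 with voom. Without the filter, which tests more genes, MDAMB436 had 17 in place of 33, and the DMSO days in OVCAR8 13 in place of 21. For day 5 minus day 3, no filter gave 1 in BT549 and 2 in OVCAR8, and voom 7 and 9. The DMSO days in BT549 had 14 with voom in place of 2. For COV362 and MDAMB436 the 4 libraries alone are the fit reported. The alternatives act on all genes, whose shares under them are not given here, so these counts of members are a description only.

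The replicate letters gave correlations of A minus B between drug and vehicle of -0.20 to 0.21, so they name libraries and were not taken as pairs. With a replicate block, BT549 at day 3 had 4 called members, and day 5 minus day 3 had 0 in BT549 and 0 in OVCAR8 by limma, where 9 and 16 had an unadjusted p under 0.05. Crossed letters in BT549 at day 3, chosen after seeing the data, gave 12.

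Leaving out 1 library, called members ran from 5 to 23 in BT549 at day 5, 3 to 11 in BT549 at day 3, 25 to 37 in OVCAR8 at day 5, 10 to 22 in OVCAR8 at day 3, 46 to 54 in COV362, 15 to 36 in MDAMB436, 47 to 51 in the common effect and 43 to 49 in the F test. They ran from 0 to 6 for day 5 minus day 3 in BT549, 0 to 0 in OVCAR8, and 0 to 5 and 9 to 21 for the DMSO days in BT549 and OVCAR8. Where limma called 0, an unadjusted p under 0.05 was found for 5 to 12 members for day 5 minus day 3 in BT549, 11 to 20 in OVCAR8 and 8 to 11 for the DMSO days in BT549. A lone library is assumed to vary like the other groups. Shares of all genes in these fits are not given here, so the ranges describe the members only.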
